A study of Mus musculus with 3 samples.

Results

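Hematopoietic stem cells (HSCs) that were positive for a Map17-GFP reporter were compared with HSCs that were negative for it, gene by gene. Genes entered the comparison when their mean level over the deposited libraries was at least 50, which kept 11951 of 23393 genes. Map17 is another name of Pdzk1ip1, a small membrane-associated protein. Both populations came from the bone marrow of C57BL/6 mice. They shared 1 gate, the LSK compartment (no lineage markers, with Sca-1 and c-Kit) without CD48 and with CD150, and differed in the labels only by genotype, Map17-GFP+ or Map17-GFP-. The remaining library, of GFP- multipotent progenitors (LSK with CD48 and without CD150), entered only the mean that selected the genes. How the reporter was built, the age, sex and number of the mice, and any pooling of animals are not given in the labels used here. Each population had 1 library, so there is no replicate error to hold a difference against, and none was tested.

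The marrow keeps a small reserve of HSCs that divide rarely and can rebuild all blood lineages. CD150 (Slamf1) and EPCR (Procr) mark this reserve in the mouse, while CD48, CD34 and Flt3 appear as cells move towards progenitors. When a stem cell enters the cycle, E2F factors switch on the genes of DNA replication, and a later programme switches on the genes of mitosis. The level of a gene here is its normalized count, and a ratio is log2 of (GFP+ level + 5) minus log2 of (GFP- level + 5). A fold printed for a gene is the plain ratio of its levels. In bulk libraries such as these, fewer cells of a kind and less RNA per cell cannot be told apart.

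The levels of all genes summed, as the authors scaled them, to 25311805 in the GFP+ and 25375047 in the GFP- library, and 15726 and 15834 genes were above 0. The depth in reads is unknown. Pdzk1ip1 (chromosome 4, 115088708 to 115093894, GRCm38) stood at 5659 in GFP+ cells and 3673 in GFP- cells, 1.54-fold higher with the reporter. The transcript was thus plentiful in both fractions, and the direction was that of the labels. Procr stood at 3776 and 2807, and Slamf1, which both gates select for, at 2219 and 2144. Cd48, which both gates exclude, stood at 64 and 168, Cd34 at 6240 and 10319, and Flt3 at 829 and 1253. The marker genes of the stem cell reserve were therefore level or higher in the GFP+ library and those of progenitors lower.

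The fractions were close for most genes. The median log2 ratio was 0.01 and the median distance from 0 was 0.14, or 1.10-fold. Of the 11951 genes, 11301 (94.6%) lay within 1.5-fold. A level at least 2-fold higher with the reporter was found for 0.41% of genes (49), and a level at least 2-fold lower for 0.87% (104). At 1.5-fold the shares were 2.44% higher (292 genes) and 3% lower (358 genes). These 4 percentages are the background for every list count past 1.5-fold or 2-fold below. For counts of members simply higher or lower, the background is 6183 genes higher and 5714 lower of the 11951.

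Genes past 2-fold were mostly rare transcripts. Their median level in HSCs was 90 on the higher side and 120 on the lower side, against 1116.5 for all genes compared. Of the 171 genes with an HSC mean under 50, which passed through their level in the progenitors, 19.3% were past 2-fold. The share was 4.83% between 50 and 200, 0.854% between 200 and 1000 and 0.259% between 1000 and 5000. None of the 1005 genes at 5000 or more was 2-fold apart. With no replicate, scatter at low level and a difference between the populations cannot be told apart for those genes. Under an HSC mean of 50, the genes past 2-fold leaned to the lower side, with 25 lower and 8 higher. The median ratio of that band was -0.188, against -0.002 to 0.040 in the other bands. The part of the selection through the progenitors in this lean was not tested. When the minimum mean was raised to 200, 9 genes were 2-fold higher and 57 were 2-fold lower. With the minimum of 50 taken over the HSC libraries alone, the counts were 55 and 81.

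**Figure D1:**
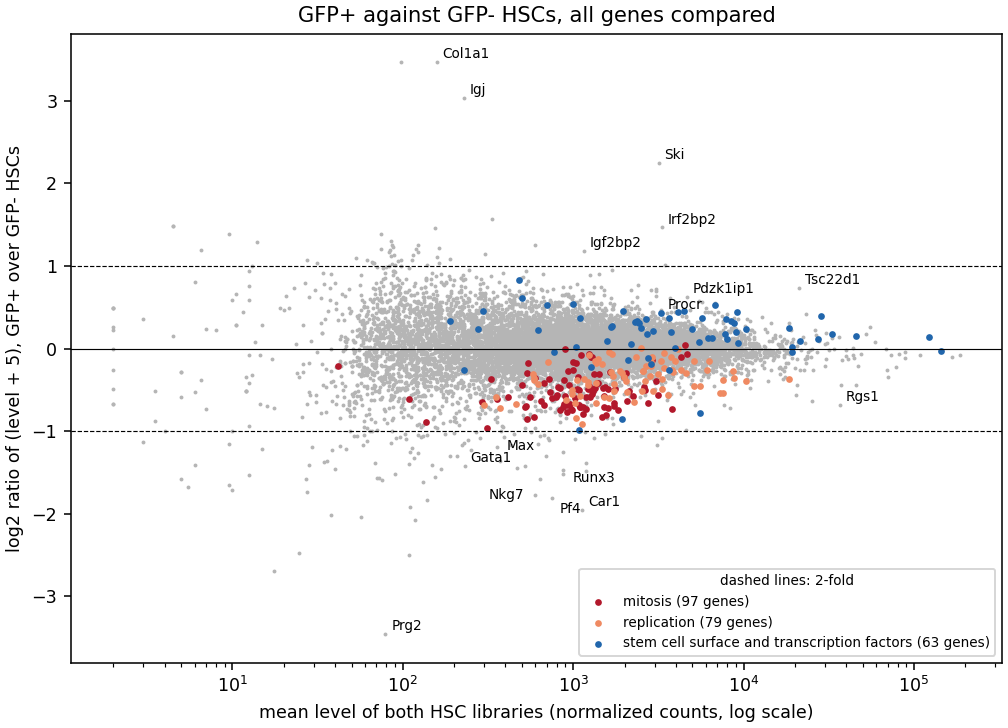
Each point is 1 of the 11951 genes, with its mean level in the HSC libraries on a log axis and its log2 ratio of GFP+ over GFP- HSCs on the vertical axis; genes below a mean of 2 are drawn at 2. The points fan out at low level, and the 49 and 104 genes past 2-fold are mostly rare transcripts.

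The ranking by ratio was limited to genes whose mean over the 3 libraries reached 500, so a gene high in the progenitors alone could enter it. Its 15 highest genes included several regulators of transcription and RNA. Ski, a corepressor in TGF-beta signalling, stood at 5247 in GFP+ cells and 1102 in GFP- cells (4.76-fold higher). The corepressor gene Irf2bp2 stood at 4863 and 1757. Igf2bp2, which encodes an RNA-binding protein that stabilises messenger RNAs, stood at 1602 and 703 (2.28-fold higher). Phf2, a histone demethylase gene (2229 and 1150), Taf4a, a subunit gene of the general factor TFIID (870 and 465), and the zinc finger gene Zfp777 (1843 and 986) were just short of 2-fold. Genes of the cytoskeleton and of muscle-type proteins were also there. Tenc1, a tensin of cell adhesions, stood at 4632 and 2300, the actin-binding gene Shroom3 at 1087 and 647, and the glycogen phosphorylase gene Pygm at 3029 and 1777.

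The interferon-inducible GTPase genes Gbp4 (1639 and 883) and Gbp9 (1331 and 770) were also among the 15, and because they are close copies their reads may be split between them. So were Slfn2, a Schlafen family gene of immune cells (1819 and 1080), and the transporter gene Slc16a9 (1195 and 709). Igj, the joining chain of secreted antibodies and otherwise a plasma cell gene, had the highest ratio, at 412 and 46. Igj reached the minimum mean of the ranking only through its level in the progenitors. The 15 highest genes had a median GC content of 54.9%, against 49.4% for the 8346 genes ranked, and the part of base composition in these ratios was not tested.

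The 15 lowest ratios included genes of several blood lineages. Car1, an enzyme gene of red cells, stood at 459 in GFP+ cells and 1791 in GFP- cells (3.90-fold lower). Pf4, the platelet chemokine, stood at 331 and 1171 (3.54-fold lower), and Mfsd2b, which exports sphingosine 1-phosphate from red cells and platelets, at 620 and 1740. Both erythroid and platelet genes were thus in this set. Genes known from lymphocytes and cytotoxic cells were there as well. Nkg7 stood at 267 and 928, the early activation marker Cd69 at 651 and 1710, and the transcription factor gene Runx3 at 456 and 1277. The integrin gene Itgal (76 and 234), the SLAM family gene Cd244 (34 and 111), Cst7 (13 and 43), Ubash3a (42 and 193), Tespa1 (12 and 64) and Dntt (2 and 18) lay at low HSC levels. These low genes reached the minimum mean of the ranking only through their level in the progenitors. Their place in this set therefore depended on the progenitor library. Eml2, a microtubule-associated gene, stood at 450 and 1300, and Hnf4a, a nuclear receptor gene best known from liver and gut, at 250 and 689. Hnf4a also entered the ranking only through the progenitors.

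**Figure D2:**
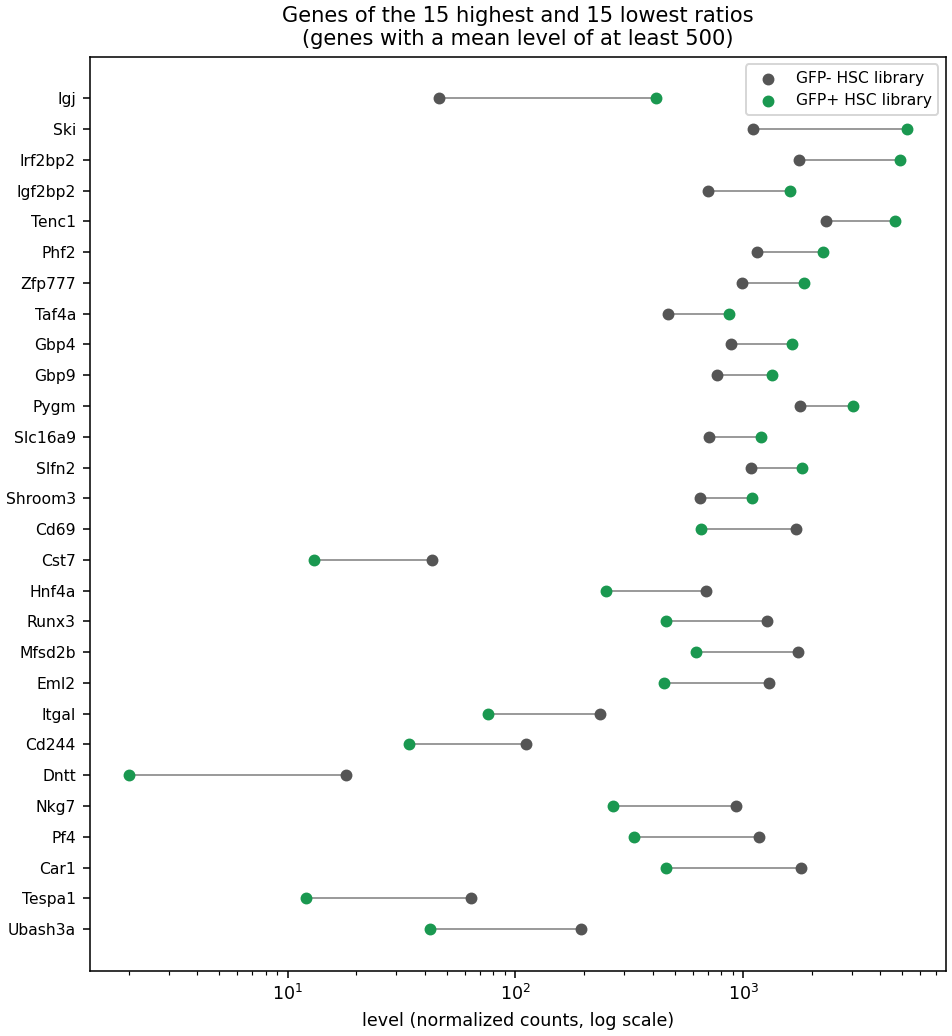
Levels (normalized counts, log axis) of genes from the 15 highest and the 15 lowest ratios, all with a mean of 500 or more over the 3 libraries, in the GFP+ and the GFP- library, ordered by the ratio with the pseudocount of 5. Igj and Ski lie farthest apart on the higher side, and the widest gap on the lower side is that of Dntt, whose levels are 2 and 18.

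In absolute terms the largest differences were in abundant genes. The 5 largest gains in level included those of the adhesion receptor gene Gpr56 (128293 in GFP+ cells and 116870 in GFP- cells), Tsc22d1 (26452 and 15938), the nuclear receptor gene Nr4a1 (60214 and 50260) and Mmrn1, a platelet granule protein gene (26685 and 19967). Tsc22d1, a TGF-beta-responsive transcription factor gene, was the only one of the 5 past 1.5-fold, at 1.66-fold. The 5 largest losses were those of Rgs1, a brake on G protein signalling (28257 and 45410, 1.61-fold lower), the endoplasmic reticulum chaperone gene Hspa5 (61603 and 78480), the transcription factor genes Klf2 (38805 and 52855) and Klf6 (63457 and 76018), and the nuclear RNA Malat1 (71961 and 83913).

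Cell cycle genes were lower in GFP+ HSCs across the whole programme, and more so for mitosis than for replication. Of 79 genes of origin licensing, the replication fork and nucleotide synthesis, 78 were lower, 13.9% were at least 1.5-fold lower and the median was -0.36. Of 97 genes of the G2 and M kinases, the kinetochore and the spindle, 96 were lower, 42.3% were at least 1.5-fold lower and the median was -0.52, or 1.44-fold. None of these 176 genes reached 2-fold. The background for the 1.5-fold counts is 3%. Genes of one programme vary together, so these members are not independent observations of the difference.

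The start of replication was followed from origin to fork. Cdc6, which loads the helicase onto origins, stood at 779 in GFP+ cells and 1474 in GFP- cells (1.89-fold lower), Mcm10 at 747 and 1338, and Cdt1, the other loading factor, at 1211 and 1823. The 6 subunits of the helicase itself were abundant and lower to a smaller extent. Mcm2 stood at 7710 and 9865, Mcm3 at 8978 and 11785, Mcm4 at 6530 and 8531, Mcm5 at 5924 and 8600, Mcm6 at 16136 and 20832 and Mcm7 at 4693 and 6434. Origin recognition subunits were divided. Orc1, whose level follows the cycle, stood at 281 and 424, while Orc4 (2507 and 2494) and Orc5 (1608 and 1651) were level. The licensing list as a whole had 17 of 18 members lower and a median of -0.39.

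All 34 fork genes were lower, with a median of -0.38. Gins1, part of the active helicase, stood at 279 and 462, the checkpoint mediator gene Clspn at 355 and 571 and the clamp loader gene Rfc4 at 1060 and 1675, whereas its partner Rfc1 was level at 4093 and 4096. All 27 nucleotide synthesis genes were lower too, with a median of -0.28. Mthfd2, a mitochondrial folate enzyme gene, stood at 230 and 372 and Dut at 1764 and 2765. DNA repair genes followed with 38 of 45 lower and a median of -0.23. Ung, which removes uracil from DNA, stood at 162 and 297, and the helicase gene Brip1 at 674 and 1140. Atm, the kinase that senses breaks, was not lower, at 2044 and 1912.

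The kinase, kinetochore and spindle lists of mitosis had lower medians than the replication lists. G2 and M cyclins and kinases were lower in 19 of 20 cases, with a median of -0.58 and 10 at least 1.5-fold lower (background 3%). Cdk1 stood at 1135 in GFP+ cells and 1994 in GFP- cells (1.76-fold lower), Aurka at 730 and 1230, Plk1 at 681 and 1085, Ccna2 at 2849 and 4725 and Ccnb1 at 598 and 908. Wee1, the kinase that holds Cdk1 inactive, was the exception, at 4574 and 4443. Kinetochore and centromere genes were lower in 43 of 43 cases, with a median of -0.47. Ska1, which couples chromosomes to microtubules, stood at 209 and 413, and Cenpn at 379 and 687. Of the spindle and cytokinesis genes, 34 of 34 were lower, with a median of -0.57. The motor gene Kif15 stood at 833 and 1451 and Espl1, the protease that separates sister chromatids, at 1058 and 1892, while Pttg1, the securin that inhibits it, was level at 891 and 894. Condensin and cohesin genes were lower in 19 of 22 cases, with a median of -0.20, nearer to 0 than those of the replication lists. Ncaph (918 and 1610) and Top2a (5874 and 9450) belong to mitotic chromosomes, and the cohesin genes Stag1 (4135 and 4024) and Nipbl (2727 and 2661) act throughout the cycle.

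The regulators above these programmes were not uniform. Among E2F, Rb and MuvB factors 15 of 20 were lower, with a median of -0.23. E2f8 stood at 726 in GFP+ cells and 1456 in GFP- cells, Mybl2 at 350 and 686, E2f1 at 1418 and 1996 and Foxm1 at 1135 and 1521, all genes that are themselves switched on in cycling cells. Rbl2, the Rb family member of resting cells, was higher at 6836 and 5877. At the G1 step, the kinase gene Cdk6 stood at 1127 and 1993 (1.77-fold lower), Ccne1 at 276 and 404 and Ccne2 at 613 and 1070. The 3 D cyclin genes were not lower, with Ccnd1 at 741 and 574, Ccnd2 at 11512 and 10218 and Ccnd3 at 6893 and 6562.

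Inhibitors of the cyclin-dependent kinases were split as well. Cdkn1c, the p57 gene that restrains HSC division, stood at 2792 in GFP+ cells and 1951 in GFP- cells (1.43-fold higher). Cdkn1a (1273 and 1667), Cdkn1b (173 and 242) and Cdkn2c (250 and 506) were lower, and Cdkn2d was near level at 2185 and 2289. Only 5 of 7 inhibitor genes passed the abundance filter. Replication histones were sparsely measured, with 16 of 67 cluster genes past the filter, and most replication histone messages are known to lack the poly(A) tail that this library chemistry copies. Hist1h1b stood at 58 and 220 and Hist1h4d at 134 and 308, whereas the abundant Hist1h1c stood at 4211 and 3715; close copies make the histone values uncertain.

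**Figure D3:**
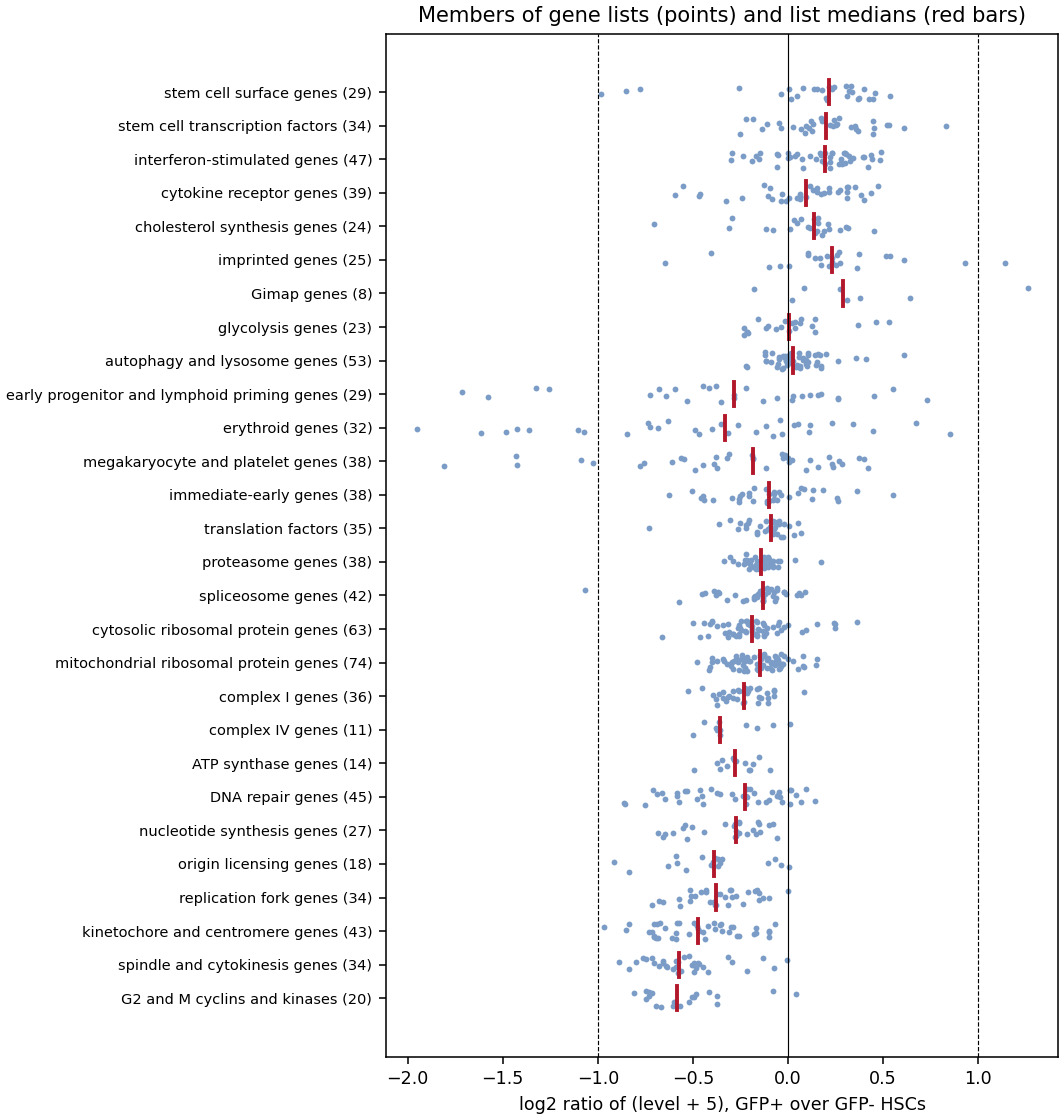
Log2 ratio of GFP+ over GFP- HSCs for the members of gene lists, with 1 point per gene past the abundance filter and a bar at each list's median; the line at 0 marks equal levels. Replication and mitosis members lie below 0 almost without exception, and stem cell lists lie mostly above it.

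The promoters of the cell cycle and interferon genes were searched for the letters of their known factors, because most members of each list lay on 1 side of 0. The windows ran from 250 bases before to 50 bases after each start, from RefSeq on GRCm38.p6, and covered 12250 promoters of 9613 genes compared. E2F sites (TTTNNCGC) were in 8.3% of all promoters, the cell cycle element CHR (TTTGAA) in 12.2%, the CCAAT box (CCAAT) in 37.8% and the interferon element (TTTCNNTTT) in 7.89%, each on either strand. The following 120 bases lie just before the start of 3 replication genes that were lower in GFP+ HSCs, with E2F sites in capitals. These windows were picked for holding an E2F site, and list members without a site there were passed over. They come from chr4:108579334-108579453 (plus strand), chr17:56303217-56303336 (plus) and chr10:62946909-62947028 (plus).
Orc1: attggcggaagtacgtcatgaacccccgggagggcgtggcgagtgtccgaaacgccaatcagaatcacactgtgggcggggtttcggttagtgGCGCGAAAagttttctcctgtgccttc
Uhrf1: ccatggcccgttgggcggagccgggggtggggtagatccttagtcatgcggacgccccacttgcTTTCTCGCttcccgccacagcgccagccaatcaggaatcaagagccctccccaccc
Dna2: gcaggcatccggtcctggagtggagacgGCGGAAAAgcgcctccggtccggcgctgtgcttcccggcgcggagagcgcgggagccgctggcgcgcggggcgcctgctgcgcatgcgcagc
Orc1 stood at 281 in GFP+ cells and 424 in GFP- cells, the DNA methylation cofactor gene Uhrf1 at 2748 and 3863 and the nuclease gene Dna2 at 1160 and 1545. E2F sites were in 8 of 21 licensing promoters (38.1%), in 12 of 32 fork promoters (37.5%) and in 5 of 26 nucleotide synthesis promoters (19.2%). With the 50 bases after the start left out, the E2F shares were 28.6%, 18.8% and 7.69%, against 6.92% of all promoters.

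Mitosis promoters were searched for the same letters, and 3 are shown, picked for holding both a CHR element and a CCAAT box. The windows, from chr8:116921620-116921739 (plus strand), chr15:102296173-102296292 (plus) and chr10:69352913-69353032 (minus), show CCAAT boxes and CHR elements in capitals, with any E2F site left in lower case, as CCAAT boxes were in the replication windows, and each window has a CHR element near the start.
Cenpn: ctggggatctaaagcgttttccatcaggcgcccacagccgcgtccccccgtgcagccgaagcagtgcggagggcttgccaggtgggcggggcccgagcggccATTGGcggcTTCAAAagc
Espl1: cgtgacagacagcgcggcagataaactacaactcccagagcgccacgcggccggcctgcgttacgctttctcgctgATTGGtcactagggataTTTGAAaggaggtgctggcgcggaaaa
Cdk1: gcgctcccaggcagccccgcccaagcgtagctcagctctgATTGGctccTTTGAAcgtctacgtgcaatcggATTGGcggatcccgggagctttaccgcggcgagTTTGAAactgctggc
Cenpn, Espl1 and Cdk1 are all in the set of lower genes above. CHR elements were in 28 of 33 spindle promoters (84.8%), 16 of 42 kinetochore promoters (38.1%) and 7 of 13 promoters of the G2 and M kinases (53.8%), and CCAAT boxes in 69.7%, 69.0% and 84.6%. The sets of letters overlapped between the programmes: E2F sites were also in 21.4% of kinetochore and 15.2% of spindle promoters, and CCAAT boxes in 57.1% of licensing promoters. A match is a run of letters and not a bound site. With the 50 bases after the start left out, the CHR shares were 48.5%, 19% and 23.1%, against 10.8% of all promoters.

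Across all genes compared, the letters alone went with small differences. Of 957 genes with an E2F site, 56.4% were lower in GFP+ HSCs, against 47.6% of those without. Of 679 genes with both a CHR element and a CCAAT box, 6.19% were at least 1.5-fold lower, against 2.91% of all genes with a promoter. Outside the replication and mitosis lists the share was 3.77% of 636 genes, and the median ratio was -0.003. Of those 636 genes 3.14% were at least 1.5-fold higher, against 2.3% of all genes with a promoter. Of 919 genes with an E2F site outside the lists, 54.6% were lower and 2.39% were at least 1.5-fold lower.

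**Figure D4:**
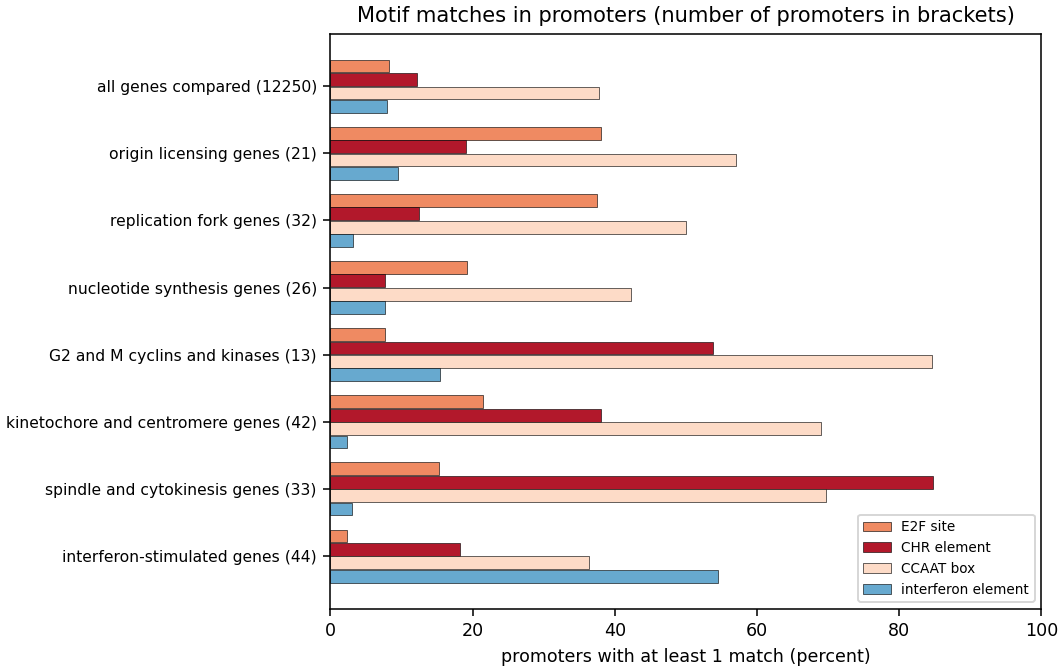
Percent of promoters with at least 1 match to each motif in the gene lists searched, beside all genes compared. The E2F site is more frequent in replication lists and the CHR element in mitosis lists than among all promoters.

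Interferon-stimulated genes were higher in GFP+ HSCs in 35 of 47 cases, with a median of 0.20 and none of the listed members past 1.5-fold. Gbp4 and Gbp9, named above, were not on the list. The GTPase gene Igtp stood at 3331 in GFP+ cells and 2452 in GFP- cells, and Ifi44 at 2560 and 1833. Phf11d was lower at 206 and 254. Interferon elements were in 24 of 44 promoters of the list (54.5%). They are in capitals in the Ifi44 window (chr3:151749911-151750030, minus strand) and the Igtp window (chr11:58199436-58199555, plus strand), both picked for holding the element.
Ifi44: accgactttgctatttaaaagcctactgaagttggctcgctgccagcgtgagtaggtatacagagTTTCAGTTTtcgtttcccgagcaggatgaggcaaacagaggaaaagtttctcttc
Igtp: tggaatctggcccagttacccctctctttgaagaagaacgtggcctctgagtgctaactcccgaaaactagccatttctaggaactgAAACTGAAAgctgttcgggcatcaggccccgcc
The 891 genes with the element outside the list had a median of 0.020.

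Most stem cell genes were higher, by a small amount. Transcription factors were higher in 27 of 34 cases, with a median of 0.20 and 2 members past 1.5-fold (background 2.44%). Hoxb5, which marks long-term repopulating HSCs, stood at 618 in GFP+ cells and 346 in GFP- cells (1.79-fold higher), and Runx1t1 at 607 and 396. Mllt3, which maintains HSCs in culture, stood at 7984 and 5559, Mecom at 8878 and 6936, Prdm16 at 4084 and 3161 and Mycn at 10522 and 7721. Erg went the other way, at 1177 and 1374, and so did Foxo3, at 207 and 248. Max, the partner of all Myc proteins, was 2.49-fold lower, at 396 and 985, while Myc was level at 16129 and 15568. The Polycomb pair Ezh2 and Ezh1 differed in direction. Ezh2, the form of dividing cells, stood at 1788 and 2527 and Ezh1 at 4054 and 3255.

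Surface genes of stem cells were higher in 24 of 29 cases, with a median of 0.22. The junction gene Jam3 stood at 1185 and 816, Clec1a at 2267 and 1648 and Fgd5 at 4725 and 3464. Exceptions past 1.5-fold numbered 3 (background 3%). They were the lipoprotein receptor gene Vldlr (720 and 1429), the cation transporter gene Slc22a3 (1369 and 2472) and Itga2b, the platelet integrin CD41 (4095 and 7032). Among cytokine receptors 26 of 39 were higher, with a median of 0.09, too near 0 to be read as a direction. Il6st, the shared receptor chain gp130, stood at 2366 and 1706, and the erythropoietin receptor gene Epor was lower at 384 and 534. Early progenitor and lymphoid priming genes were lower in 18 of 29 cases, with a median of -0.28. Of these, 4, including Dntt and Cd48, were at least 2-fold lower (background 0.87%). Of all 30 members 9 were under 50 in both HSC libraries, yet 29 passed the filter. Those of the 9 that passed, Dntt (2 and 18) and Blnk (48 and 27) among them, did so only through the progenitors. By HSC mean, 25 of all 171 genes under 50 and 40 of all 1510 genes between 50 and 200 were at least 2-fold lower. The median of the list was -0.13 when the minimum mean of 50 was taken over the HSC libraries alone.

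Lineage genes were lower for red cells and platelets, with exceptions among the end products. Of 32 erythroid genes 23 were lower, 7 at least 2-fold (background 0.87%), with a median of -0.33. The master factors Gata1 (279 in GFP+ cells and 758 in GFP- cells) and Klf1 (152 and 333) were lower, and so was Sphk1, which makes sphingosine 1-phosphate (62 and 200). The membrane proteins of mature red cells Slc4a1 (285 and 156) and Epb4.2 (180 and 131) and the globin row Beta-s (361 and 225) were higher. Of 38 megakaryocyte and platelet genes 25 were lower, 5 at least 2-fold (background 0.87%), with a median of -0.18. Plek stood at 2128 and 4525, F2rl2 at 124 and 342 and Gp1bb at 129 and 268. Vwf, high in platelet-biased HSCs, was higher at 9964 and 7697. Without members shared with other lists the erythroid median was -0.22 and the megakaryocyte median -0.032.

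Markers of cell types outside the gate did not lie in 1 direction. Of 26 genes of neutrophil granules and S100 proteins, 14 passed the filter, 10 were higher and 4 at least 2-fold higher (background 0.41%), with a median of 0.49. Chi3l3 had the highest ratio, at 183 in GFP+ cells and 12 in GFP- cells. Ngp stood at 499 and 165, Lcn2 at 85 and 38 and Ltf, under 2-fold, at 323 and 165, while Itgam was lower at 263 and 444. Trem3 (22 and 6), also past 2-fold, passed the filter only through its level in the progenitors. By HSC mean, 8 of all 171 genes under 50 and 33 of all 1510 genes between 50 and 200 were at least 2-fold higher. The summed list stood at 16715 and 16461, and 4 members were at 0 in both libraries. With a minimum mean of 200 the neutrophil median was -0.0092. T and NK cell genes, with 12 of 38 past the filter, summed to 2348 and 3474, and 28 of the 38 were under 50 in both libraries. Of the 12, 9 were lower, 5 of them at least 2-fold (background 0.87%), and 3 were higher, 1 of them at least 2-fold. That gene, Cd6 (9 and 0), and Tespa1 (12 and 64) were among the members that passed the filter only through their level in the progenitors. The defining genes Cd3e, Cd3g and Ncr1 were at 0 in both libraries. Of 22 B and plasma cell genes 6 passed, summing to 2855 and 2427, with Pax5 and Ms4a1 at 0 in both. Eosinophil, basophil and mast cell genes passed in 7 of 23 cases and summed to 16459 and 20000; Prg2 stood at 9 and 149 and Cpa3 at 35 and 116. Stromal genes passed in 10 of 28 cases and summed to 8206 and 7384. Among them Col1a1 was higher at 294 and 22 and Cxcl12 lower at 29 and 187. The part of such cells in the lineage genes that differed was not tested.

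Several lists of energy and protein production were lower by a small amount. Of 74 genes of the respiratory chain and ATP synthase 72 were lower, none past 1.5-fold, with a median of -0.24, or 1.18-fold. The ordering followed the complexes only loosely: complex I had a median of -0.23, complex II of -0.12, complex III of -0.25, complex IV of -0.36 and the ATP synthase of -0.28. Atpif1, the natural brake on the synthase, stood at 2499 in GFP+ cells and 3519 in GFP- cells. Citrate cycle genes were lower in 14 of 16 cases with a median of -0.11, and glycolysis genes were divided, 12 higher and 11 lower. Of 137 ribosomal protein genes of the cytosol and mitochondria 121 were lower, with a median of -0.17. Translation factors were lower in 31 of 35 cases (-0.09) and aminoacyl tRNA synthetase genes in 18 of 20 (-0.07). Both of these medians were under the 0.1 that is read as a direction. Proteasome genes were lower in 36 of 38 cases (-0.14), spliceosome genes in 38 of 42 (-0.13) and chaperone genes in 27 of 29 (-0.15). Housekeeping genes were also lower, in 15 of 17 cases, with a median of -0.12. Prpf19, a core splicing gene, stood apart among the spliceosome genes at 1612 and 3377.

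Ratios also varied with transcript length. With the genes compared in 5 equal bins of transcript length, the bin of shortest transcripts (median 1463 bases) had a median ratio of -0.058 and that of the longest (6746 bases) 0.042, while complex I and complex IV transcripts had median lengths of 1093 and 765 bases. With the trend on length and GC content removed, the medians of complexes I, II, III and IV and of the ATP synthase were -0.13, -0.08, -0.10, -0.20 and -0.16. Proteasome and housekeeping genes then had medians of -0.09 and -0.09 and citrate cycle genes of -0.0984, and these 3 and complex II were under the 0.1 that is read as a direction. In the bin of shortest transcripts 37.6% of genes were higher in GFP+ HSCs, and in that of the longest 59.1%. The cause of the length trend was not tested.

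**Figure D5:**
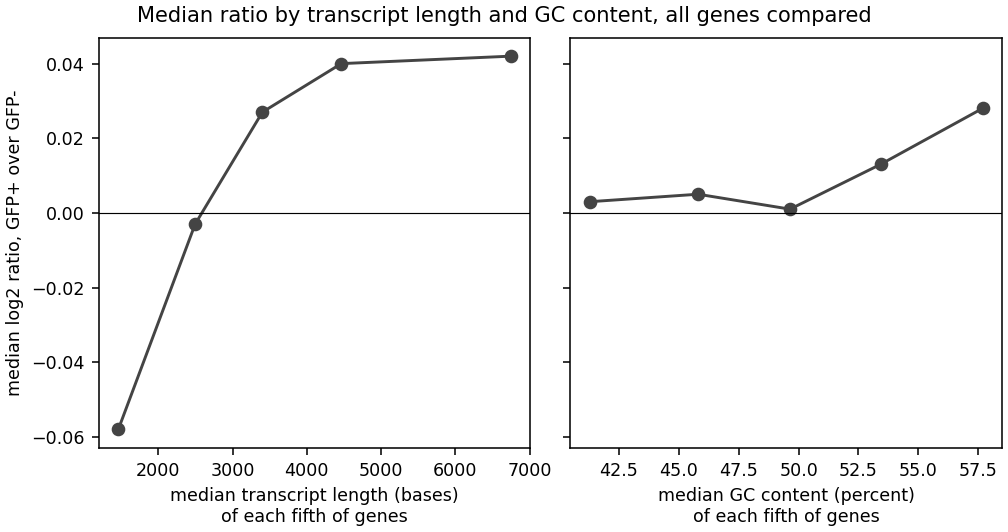
Median log2 ratio of GFP+ over GFP- HSCs in 5 equal bins of the genes compared, ordered by transcript length in bases (left) and by GC content in percent (right). The median climbs from -0.058 to 0.042 with length and stays between 0.001 and 0.028 over GC content.

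The libraries also differed in sex-linked and ribosomal transcripts. Xist, the RNA of the inactive X, stood at 3087 in GFP+ cells and 6137 in GFP- cells, and its antisense partner Tsix at 781 and 1577; the library chemistry does not mark the strand, so their reads cannot be told apart. The Y-linked genes Ddx3y (3251 and 2475), Eif2s3y (1712 and 1404), Kdm5d (1074 and 780) and Uty (1356 and 1182) were higher in GFP+ HSCs. Transcripts of both sexes were thus in each library, in different proportion. The ribosomal precursor row Rn45s stood at 19666 and 30505. The part of these differences in the results above was not tested.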

How the data were processed

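RNA was measured in sorted mouse bone marrow cells, with 1 library for each population. TRIzol and PicoPure extraction and SMART-seq v4 cDNA synthesis were used, per the labels' protocols. This chemistry copies polyadenylated RNA of few cells by PCR and does not mark the strand. The submitters' processing notes name STAR, DESeq2 and mm10, without versions; the counting tool is not stated there. The authors deposited normalized counts held as whole numbers, which were treated as a score because the size factors are unknown. Depth in reads is therefore unknown, and no counting interval was made.

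Of 23420 rows, 27 with a date in place of a symbol (0.212% of the summed levels) were left out, and 23234 of the rest matched RefSeq names. Ratios used log2 of (level + 5), which understates differences of low genes, and genes were compared when the mean over the 3 libraries reached 50. These 11951 genes held 99.8% of the HSC levels. No test was made, since each side had 1 library. The genes compared and 62 gene lists, from general knowledge, were chosen with earlier results of these data known. A list is described by its counts and median, and a median under 0.1 from 0 is not read as a direction. Named genes were the 3 markers, the 15 highest and 15 lowest ratios of genes whose mean reached 500, without predicted models, the 5 largest gains and losses, the 3 extreme members at each end of a list and members that define it. A few genes picked by this rule are left out of the text. Length and GC content came from GENCODE M21 for 99.3% of genes compared, and their trend was removed by lowess with a span of 0.3. The calculation was tested on simulated data. Alternatives were other pseudocounts, minimum means, fold thresholds, scalings, trend removal, list means, unshared members and a shorter promoter window. The scripts ran in Python 3.11.15 with matplotlib 3.10.9, statsmodels 0.14.6, scipy 1.17.1, pandas 2.3.3 and numpy 2.4.6.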

Additional observations from a re-analysis of the deposited data

How the results depend on the processing

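The counts of genes past a threshold depended on the low levels. Genes at least 2-fold higher numbered 49, and 23 with a pseudocount of 20, 164 with a minimum mean of 10, 9 with a minimum of 200, 356 with no minimum, 292 at 1.5-fold and 4 at 4-fold. Genes at least 2-fold lower numbered 104, and 62, 194, 57, 359, 358 and 7 under the same settings. Of 62 list medians, 43 moved by less than 0.1 under every alternative run, as did 704 of their 743 alternative values. Scaling both libraries to 1 total or 1 upper quartile moved none of them that far. Such scaling shifts all ratios nearly alike, and the median of all genes went only from 0.0105 to 0.0141 and 0.0119. These settings therefore could not move a list median by 0.1. The early progenitor median was -0.13 with a minimum mean of 50 over the HSC libraries and -0.18 with members that no other list holds, and the latter setting gave -0.22 for erythroid genes and -0.032 for megakaryocyte genes. With the trend on length and GC content removed, complexes III and IV and the ATP synthase had medians of -0.10, -0.20 and -0.16. The neutrophil median was -0.0092 with a minimum mean of 200, 0.68 with the length and GC trend removed, 0.70 with unshared members and 0.67 as a mean. Sign also turned for p53 targets with a minimum of 200 (-0.0021, from 0.11) and, as means, for sort markers (-0.14, from 0.10) and sex-linked genes (-0.11, from 0.24). The cause was not tested. With 1 library a side, no alternative stands in for a replicate. No paired analysis was possible because each population had 1 library and no result came from a test.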

Other observations

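Signalling genes outside the cell cycle had medians near or a little above 0. Of 33 TGF-beta, activin and BMP pathway genes 24 were higher, with a median of 0.0974, under the size read as a direction. Besides Ski, Inhba, a subunit of activin, stood at 229 in GFP+ cells and 96 in GFP- cells, while the ligand gene Tgfb1 (3029 and 4426) and the target genes Id1 (1460 and 1946) and Id3 (375 and 758) were lower and Smad7, another target, was level at 4229 and 4248. Skil, the close relative of Ski, was lower at 7407 and 9576. Wnt pathway genes were higher in 22 of 31 cases, with a median of 0.19, among them the receptor gene Fzd8 (1080 and 688) and the secreted antagonist gene Sfrp1 (1180 and 764). The mean of the Wnt list was 0.0911, and its lowest member, the Wnt inhibitor gene Apcdd1, stood at 1 and 34. Notch pathway genes were higher in 22 of 28 cases, with a median of 0.07, also under that size. Notch1 stood at 2365 and 1725 and its ligand genes Dll4 and Jag1 at 325 and 206 and at 212 and 158.

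Imprinted genes, which are expressed from 1 parental copy, were higher in 21 of 25 cases, with a median of 0.23. Meg3 (421 in GFP+ cells and 188 in GFP- cells) and Dlk1 (250 and 162), which share an imprinted cluster, were both higher, as were Peg3 (119 and 60) and the receptor gene Igf2r (1638 and 1127), while Copg2 was lower at 940 and 1473. Endothelial genes were higher in 14 of 17 cases, with the VEGF receptor gene Kdr at 713 and 444 and Ramp2 at 419 and 259. Gimap genes, GTPases of lymphoid cells, were higher in 7 of 8 cases, and Gimap3 stood at 842 and 349, with close copies that may share reads. Cholesterol synthesis genes were higher in 19 of 24 cases, with a median of 0.14.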
